A study of Homo sapiens with 8 samples.

Results

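EndoC-βH5 is a human pancreatic beta-cell line, and the values described here are the expression levels of 16525 genes in its untreated state. The 4 control libraries, of 8 in the whole series, were taken, and the cytokine-treated cells of the other 4 were left out. The control cultures were kept without IL-1β, IFNγ or TNFα and harvested at 48 h. The line derives from human fetal pancreas, was first immortalised with SV40 large T antigen and human TERT, and had these transgenes removed again, so all cultures come from 1 line made ready by its supplier. They were plated from frozen stock and grown in Ultiβ1, the supplier's medium. The libraries are named A, B, C and D because the columns carry no replicate number. The column names of A and B share the same middle part, those of C and D share another, and the labels do not explain it. Nothing in the labels says that the libraries come from separate cultures, so the spread between them may be technical. With a single group there is no contrast and no p-value, and every value is a level, or a ratio of levels, with its standard deviation (SD, n = 4) or its range.

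A pancreatic beta cell makes proinsulin, cuts it to insulin with the convertases PCSK1 and PCSK2 and carboxypeptidase E, and stores it with zinc, amylin (IAPP) and granins in dense-core granules. Glucose enters through a transporter, is metabolised and raises ATP, which closes the KATP channel, opens voltage-gated calcium channels and so triggers release. PDX1, NKX6-1, MAFA, NEUROD1 and other transcription factors hold this identity, and many of its genes are also used by neurons. Fetal beta cells are known to differ from adult ones in low MAFA and in co-expression of other hormones.

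3 hormone promoters are shown first because the homeodomain factors PDX1, NKX6-1, PAX6 and ISL1, whose levels are given further on, recognise a TAAT core, which is in capitals here on either strand (TAAT or ATTA). Each run is the 250 bases before the gene start of RefSeq on GRCh38.p14, 5′ to 3′ on the coding strand. They are INS at chr11:2161210-2161459, SST at chr3:187670395-187670644 and GCG at chr2:162152248-162152497, all on the minus strand.
INS: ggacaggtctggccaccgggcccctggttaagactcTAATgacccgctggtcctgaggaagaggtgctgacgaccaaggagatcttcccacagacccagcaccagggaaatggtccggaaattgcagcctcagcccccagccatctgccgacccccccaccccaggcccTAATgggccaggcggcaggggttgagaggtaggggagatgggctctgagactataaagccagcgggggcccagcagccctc
SST: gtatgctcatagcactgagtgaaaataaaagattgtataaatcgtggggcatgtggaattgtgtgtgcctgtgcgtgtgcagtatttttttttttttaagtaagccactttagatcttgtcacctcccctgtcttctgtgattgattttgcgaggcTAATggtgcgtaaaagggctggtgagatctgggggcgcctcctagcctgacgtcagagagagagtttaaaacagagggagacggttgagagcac
GCG: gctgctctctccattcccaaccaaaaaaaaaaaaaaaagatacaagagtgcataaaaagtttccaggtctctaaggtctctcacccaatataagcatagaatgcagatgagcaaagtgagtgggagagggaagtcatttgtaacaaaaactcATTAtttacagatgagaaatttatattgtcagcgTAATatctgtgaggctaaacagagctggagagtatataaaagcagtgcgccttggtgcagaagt
The INS window held TAAT at -214 and -81, counted from the gene start. The SST window held it at -94, and the GCG window held ATTA at -98 and TAAT at -64. The E-box CANNTG, read by NEUROD1 and other basic helix-loop-helix factors, was found once in INS (-109), once in SST (-201) and 3 times in GCG (-147, -116 and -90). The cAMP response element TGACGTCA, searched on both strands, was found in SST alone of these windows, at -47. The box TATAAA, searched on the coding strand, stood at -30 in INS and GCG and at -215 in SST. No match overlapped another. Over 35116 promoter windows of this length, 47.4% held TAAT on either strand, 27.6% held it at least 2 times, 61.8% held CANNTG, 1.65% held TGACGTCA and 6.80% held TATAAA. A match describes the letters only.

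A second set of sequences belongs to microRNA genes. They are shown because hairpin or host transcripts of 19 microRNA genes had counts in an mRNA library, and 3 of the 4 with the most reads, MIR429, MIR200B and MIR200A, lie side by side between 1167104 and 1169087 on chromosome 1. The miR-200 family is known for holding epithelial identity through ZEB1 and ZEB2, and miR-7 is a microRNA of islet endocrine cells. Mature sequences from RefSeq (GRCh38.p14) are given 5′ to 3′ with the seed, bases 2 to 8, in capitals.
hsa-miR-429: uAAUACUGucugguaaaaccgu
hsa-miR-200b-3p: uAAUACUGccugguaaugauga
hsa-miR-200a-3p: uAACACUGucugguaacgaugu
hsa-miR-200b-5p: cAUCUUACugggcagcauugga
hsa-miR-200a-5p: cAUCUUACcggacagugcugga
hsa-miR-7-5p: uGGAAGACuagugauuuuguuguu
The mature hsa-miR-429 and hsa-miR-200b-3p share the seed AAUACUG, hsa-miR-200a-3p has AACACUG, and both 5p arms of the cluster share AUCUUAC. MIR429 reached 4.13 ± 1.30 CPM (the read count scaled to the library total) and 231, 260, 141 and 167 reads in A, B, C and D, MIR200B reached 3.78 ± 1.14 CPM and MIR200A 1.84 ± 0.578 CPM. MIR7-3, the only miR-7 gene analysed, had 4, 13, 12 and 23 reads (0.262 ± 0.15 CPM) and stood 18th of the 19. Of these genes 7 were above 0.5 CPM in all 4 libraries. These reads lie on the longer precursor transcripts, so they give no level of the mature microRNAs. All of these microRNA genes were named after their values were seen.

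Each library had between 36956294 and 40117636 reads on the listed genes, and the totals by which the authors divided lay between 46767972 and 51145634. A single read was worth 0.0196 to 0.0214 CPM. Where no read was counted, up to 3 reads (0.0587 to 0.0641 CPM) could have been missed, a limit that covers counting error only. Reads on mitochondrially encoded genes took 18.7%, 18.3%, 7.39% and 11.5% of the reads on listed genes in A, B, C and D, and 20.1% to 26.6% of the library totals lay outside the listed genes. Libraries A and B were the most alike pair. Over the 14728 genes that averaged 1 CPM or more, the median absolute log2 difference was 0.15 between A and B, 0.24 between C and D, and 0.28 to 0.44 across these pairs. The median level of these genes was 15.4 to 19.1 CPM over the libraries as deposited and 16.7 to 17.4 CPM after TMM scaling, and that shift applies to each CPM given below. Levels of different genes are compared here only per length, as TPM, the counterpart of CPM corrected for exon length and computed from the recovered reads, and a rank by CPM orders genes by their share of reads. How far TPM moved with the mitochondrial share was not tested, while ratios of 2 genes within a library are free of it.

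A gene is listed only where at least 4 samples, control or treated, passed 0.5 CPM, so most listed genes were above that level in every control library. Above 0.5 CPM in all 4 were 15117 of the 16525 genes (91.5%), and 13910 were above 1 CPM in all 4. Protein-coding genes (13401) held 95.6% ± 0.464 of the reads on listed genes, and 95.4% of them were above 0.5 CPM in all 4. The 2419 lncRNA genes, which make no known protein, held 1.55% ± 0.129, with 75.5% of them above 0.5 CPM in all 4. Pseudogenes (540) held 0.684% ± 0.204 and genes of the provisional TEC class (120) held 0.0389%. Reads were concentrated in few genes. The 36 genes at or above 1000 CPM on average held 22.9% of the reads on listed genes, the 1430 genes from 100 to 1000 CPM held 38.3%, the 7838 genes from 10 to 100 CPM held 35.7%, and the 588 genes under 0.5 CPM held 0.0230%. By themselves the 10 genes with the most reads held 16.6% ± 4.04, and the lowest share was 11.8%, in C.

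Among the 20 genes with the most reads, 10 were mitochondrially encoded and the others were nuclear. MT-CO1, a subunit of cytochrome c oxidase, came first at 22692 ± 11764 CPM. CHGA, the granule protein chromogranin A, came second at 19221 ± 3843 CPM, and GNAS, which encodes the stimulatory G-protein subunit and the granin-like NESP55, was the fourth at 13926 ± 2614 CPM. Among the other nuclear genes of the 20, IAPP, PTPRN (the granule membrane protein IA-2), INS, TTR (transthyretin) and PCSK1N (a PCSK1 inhibitor) are endocrine or secretory. EEF2 and EEF1A1 are elongation factors of translation, and PLD3 is a lysosomal protein, at 1879 CPM. Per length, the 10 highest nuclear genes were CHGA at 24075 TPM, INS at 10386, BCYRN1 at 8525, IAPP at 7514, SST at 7002, PCSK1N at 5473, MTATP6P1 at 5072, GNAS at 4068, TTR at 3389 and FTL at 3379 TPM. The order below CHGA depends on the length used. With the longest transcript GNAS came second at 10726 TPM, ahead of INS at 10176, TTR stood at 6222 TPM, ahead of SST at 5728, and EEF2 took the place of FTL. BCYRN1 is a short non-coding RNA of 200 bases, so few reads give a high TPM, and it ranged from 125 CPM in A to 747 CPM in C. MTATP6P1 is a pseudogene that is a near copy of the mitochondrial MT-ATP6, so reads of either could have been placed on the other. FTL encodes ferritin light chain.

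The lncRNA with the most reads was MEG3, the maternally expressed transcript of the imprinted locus on chr14, with 1198, 1112, 583 and 1041 CPM in A, B, C and D. Library C lay lowest for MEG3 and the other 3 were close to each other. Other abundant lncRNAs included NORAD, a cytoplasmic RNA that binds Pumilio proteins, at 501 ± 123 CPM, OLMALINC at 147 ± 32.7 CPM and MALAT1, a nuclear speckle RNA, at 141 ± 63.4 CPM, from 83.9 in C to 229.9 in D. DLK1, a protein-coding neighbour of MEG3 in the same imprinted locus, had 28.1, 35.4, 114 and 85.2 CPM. It was highest in C, where MEG3 was lowest, but was also above A and B in D, where MEG3 was close to them. Of the unprocessed pseudogenes the 5 with the most reads were all copies of mitochondrial genes (MTATP6P1, MTND2P28, MTCO1P12, MTCO3P12 and MTND1P23). The 5 processed pseudogenes with the most reads were MTND4P12 at 65.8 CPM, the ribosomal protein copies RPS2P5, RPL23AP42 and RPL7AP6, and DUSP8P5. WASH5P led the transcribed processed pseudogenes at 139 CPM, AHSA2P the transcribed unitary ones and GOLGA2P7 the transcribed unprocessed ones. No gene of the TEC class was above 18.9 CPM on average.

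The defining markers of beta cells were present in every library, at ranks from 2 (CHGA) to 668 (NKX6-1) by share of reads. INS, the insulin gene (chr11:2159779-2161341, minus strand), had 2477, 2905, 2134 and 1158 CPM in A, B, C and D. It was highest in B and lowest in D, 2.51-fold apart. Its mean was 2169 ± 744 CPM, rank 17 of 16525 by share of reads, and 10386 ± 2684 TPM, rank 14 per length of the 16167 genes with a length. Of its 776 exon bases, 31.7% are shared with the readthrough gene INS-IGF2, so reads there may have been left unassigned. CHGA (chr14:92923080-92935293) had 16689, 17274, 24930.4 and 17991 CPM, with C above the others, and it exceeded INS per length in every library, by 1.49-fold to 3.89-fold.

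IAPP, which encodes amylin, the peptide co-secreted with insulin (chr12:21354959-21379978), had 2710.4, 2982, 6746 and 3972 CPM. C and D were above A and B, while INS was higher in A and B than in C and D by CPM and had C between A and B by TPM. Within a library the ratio of IAPP to INS per length was 0.392 in A, 0.368 in B, 1.13 in C and 1.23 in D, so INS led in A and B and IAPP in C and D. PDX1, the homeodomain factor of pancreas and beta cells (chr13:27920020-27926231), was steady at 379, 385, 419 and 349 CPM, rank 173 by share of reads and 86 per length (587 ± 93.8 TPM). NKX6-1, a repressor of other islet fates in beta cells (chr4:84491987-84498450, minus strand), had 185, 168, 189 and 135 CPM and 209 ± 34.6 TPM.

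Hormones of other islet cell types were not evenly expressed. SST, somatostatin, the hormone of delta cells (chr3:187668906-187670399, minus strand), had 1761, 2143, 615 and 355 CPM. It was high in A and B and low in C and D, 6.03-fold from lowest to highest. Per length its mean was 7002 ± 4336 TPM, and it stood at 0.362 to 0.926 of INS in the same library. GCG, proglucagon, the alpha-cell hormone gene, had 19.8, 27.2, 222 and 104 CPM and so ran the opposite way, 11.2-fold from lowest to highest. Its TPM was 163 ± 172, between 0.00260 and 0.0339 of INS, or 0.00397 to 0.0516 with the longest transcript as length. PPY, pancreatic polypeptide of gamma cells, rested on 13, 11, 40 and 24 reads (0.444 ± 0.256 CPM). GHRL, ghrelin of epsilon cells, had 5.28, 6.75, 6.55 and 3.36 CPM. INS exceeded SST per length in all 4 libraries, while the place of IAPP differed, below both in A and B and above both in C and D. Over libraries the 3 genes spanned 6516 to 12586 TPM (INS), 4222 to 13206 TPM (IAPP) and 2511 to 11657 TPM (SST).

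Of 36 hormone and peptide genes listed, 19 were analysed and 15 of these were above 0.5 CPM in all 4 libraries. Such counts, here and in the lists that follow, stand beside 91.5% of all listed genes, and a count near that share is no feature of the list. Their median was 39.6 TPM, beside 11.6 TPM over all genes with a length, and none was at 3 reads or fewer in all 4. UCN3, urocortin 3, a peptide of mature beta cells and of alpha cells, had 487, 515, 344 and 224 CPM (1212 ± 279.8 TPM). NPY, neuropeptide Y, was close to it per length at 1197 ± 85.5 TPM, with 298, 341, 253 and 271 CPM. PYY, peptide YY, had 87.8, 89.4, 223 and 114 CPM, highest in C as GCG was. IGF2, the fetal growth factor next to INS, lay between 356 and 431 CPM, but 73.7% of its exon bases are shared with a second entry of the same name. POMC, proopiomelanocortin, had 13.0 to 22.3 CPM, and GAST, gastrin of fetal islets, had 1.35, 1.76, 5.73 and 3.73 CPM. CARTPT, CRH and INHBA were among the lowest, with INHBA at 0, 15, 37 and 28 reads. Not analysed here were 17 listed genes, among them GIP, CCK, VIP, GAL and PENK.

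**Figure D1:**
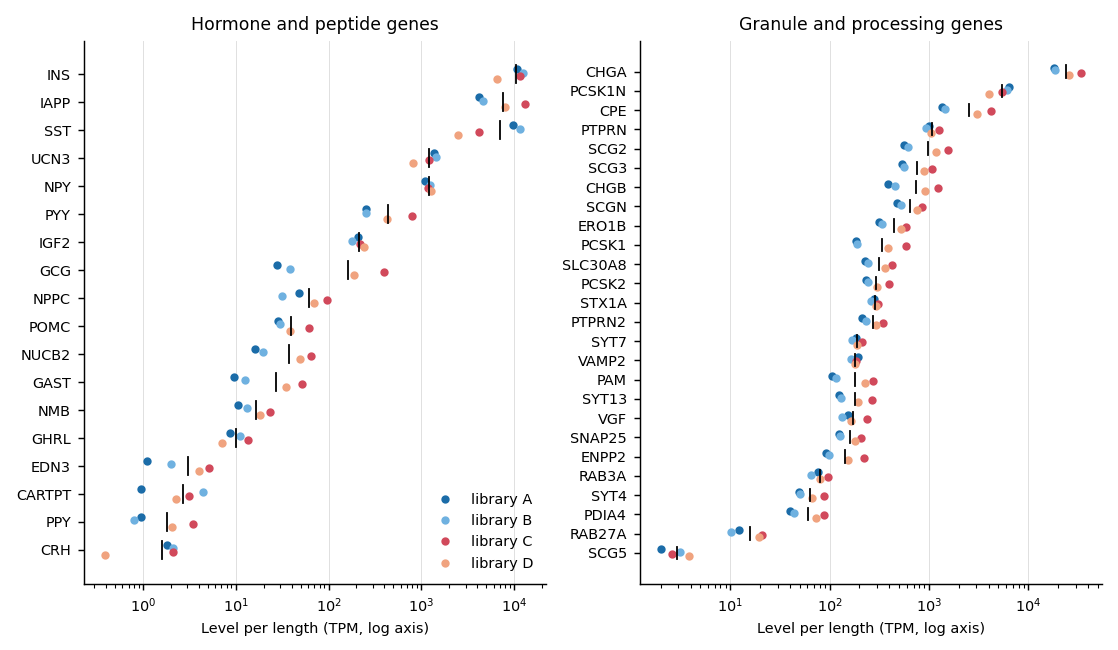
Level per length (TPM, log axis) of hormone and peptide genes (left) and of granule and processing genes (right), with 1 point per control library and a black bar at the mean. INS spans 6516 to 12586 TPM, SST is higher in A and B, GCG is higher in C and D, and 21 of the 26 granule genes have a mean of at least 100 TPM; INHBA, at 0 reads in A, is not drawn.

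Granule proteins and prohormone processing enzymes had the highest median of the endocrine, neuronal and tissue lists. All 26 of 26 genes were analysed and above 0.5 CPM in all 4 libraries, with a median of 278 TPM, and 21 had at least 100 TPM. PCSK1, the convertase that starts proinsulin cleavage, had 290.1, 299, 741 and 466 CPM, higher in C and D than in A and B. PCSK2, the second convertase, had 489.5, 510.3, 658 and 482 CPM, and the ratio of PCSK1 to PCSK2 per length was 0.780 to 1.5, below 1 in A and B and above it in C and D. With the longest transcript it was above 1 in C alone. CPE, carboxypeptidase E, which trims the cut ends, had 1189, 1283, 2935 and 2038 CPM. CHGB, SCG2 and SCG3, further granins, had the same order of libraries as CPE, with 515, 619, 1307 and 943 CPM for CHGB. PCSK1N, the endogenous PCSK1 inhibitor, went the other way, at 2549.8, 2498, 1732 and 1256 CPM. PTPRN (2298 ± 215 CPM) and SLC30A8, the granule zinc transporter ZnT8 (505 ± 88.9 CPM), varied less. The lowest of the 26 was SCG5, the PCSK2 chaperone 7B2, at 1.30, 2.03, 1.35 and 1.94 CPM (61 to 99 reads), far under PCSK2 in every library. No exon base of SCG5 is shared with another gene in the annotation used for lengths here. The authors name a different release for counting, so whether reads on SCG5 were left uncounted was not tested.

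Genes known as autoantigens of type 1 diabetes had a median of 133 TPM, beside 11.6 TPM over all genes. Of 17 listed, 16 were analysed and 15 were above 0.5 CPM in all 4 libraries, beside 91.5% of all listed genes. Besides INS, IAPP, CHGA, PTPRN and SLC30A8 they include GAD2 (GAD65), at 219, 228, 287 and 220.3 CPM, and PTPRN2, G6PC2 and TSPAN7. GAD1 (GAD67) had 2.57, 2.01, 1.57 and 2.54 CPM, so GAD2 exceeded it 113-fold to 241-fold per length within each library, or 58.2-fold to 124-fold with the longest transcript as length. TGM2 was the exception below 0.5 CPM in some libraries, at 0.279 to 0.529 CPM. Of 44 monogenic diabetes genes, 37 were analysed and all 37 were above 0.5 CPM in all 4 libraries, with a median of 49.5 TPM. ABCC8, WFS1, PCBD1 and HNF4A were among them.

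Islet transcription factors had a median of 34.3 TPM over the 44 analysed of 55 listed. Each of the 44 was above 0.5 CPM in all 4 libraries, beside 91.5% of all listed genes, and 42 were above 1 CPM in all 4, with HNF4G and SOX9 as the other two. Among the highest per length were INSM1, a zinc-finger factor of endocrine cells (887 ± 171 TPM), MLXIPL, the glucose-responsive factor ChREBP (635 ± 160.2 TPM) and PDX1. MAFA, the factor of mature beta cells, had 16.6, 19.9, 30.3 and 23.4 CPM, lowest in A and highest in C. MLXIPL was higher in A and B (1158 and 1028 CPM) than in C and D (514 and 615 CPM).

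Per length, other factors of the beta-cell network were below INSM1, MLXIPL and PDX1. MAFA, at 35.3 TPM, was under FOXA2, ISL1, NEUROD1, NKX2-2 and PAX6, whose levels follow. FOXA2, a pioneer factor of endoderm, had 335 ± 20.7 TPM, ISL1 had 255 ± 105 TPM, NEUROD1 had 219 ± 19.7 TPM and NKX2-2 had 190.3 ± 22.8 TPM. PAX6, which acts in all islet cell types, had 697, 693, 528 and 568 CPM, and its TPM was 113 with all annotated exons and 259.6 with the longest transcript. RFX6, a factor of endocrine differentiation, was among the steadiest, at 87.3, 84.1, 85.4 and 84.9 CPM. Factors that mark other islet cells were also expressed. IRX2, a factor of alpha cells, had 42.3 ± 7.58 TPM, below the factors just given in TPM but above MAFA. HHEX, the delta-cell factor, had 13.1, 15.2, 7.90 and 5.81 CPM and was higher in A and B, as SST was. FEV, a serotonergic and endocrine progenitor factor, had 55.9, 56.8, 34.6 and 26.0 CPM, and PAX4 had 3.05 ± 0.673 CPM. SOX9, a factor of ducts and progenitors, had 41 to 79 reads. FOXA1, GATA6, NEUROG3, PTF1A, POU3F4, ONECUT1, NR5A2, LMX1A, NKX6-2 and NKX6-3 were among those not analysed here.

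**Figure D2:**
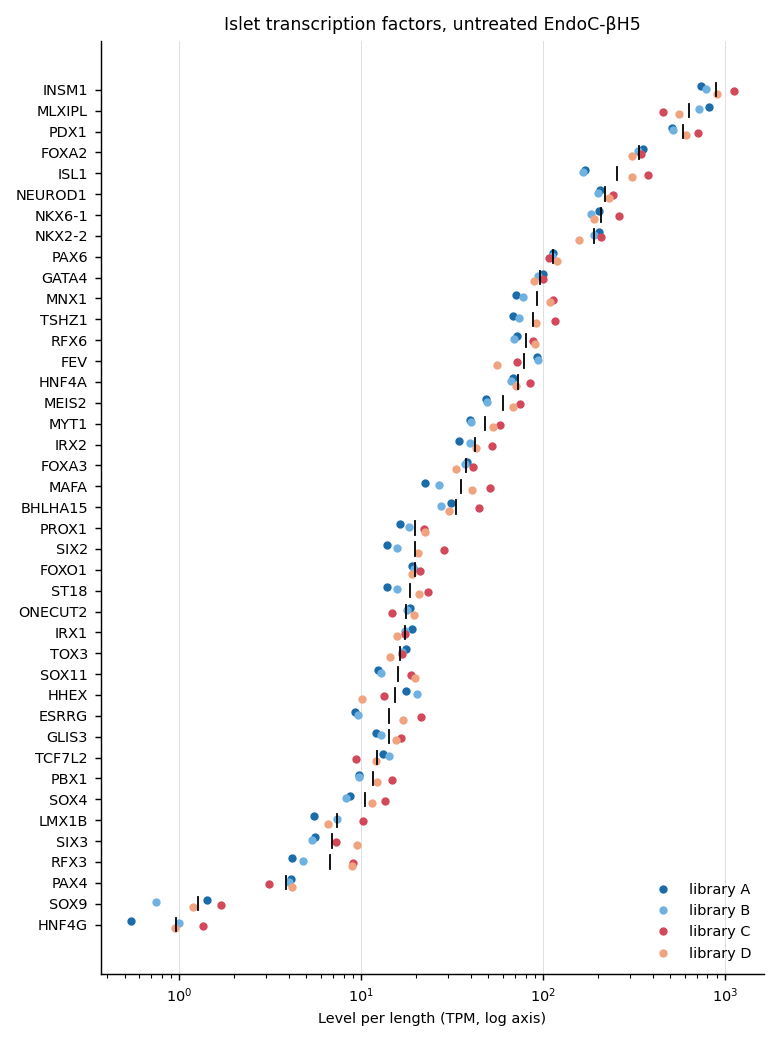
Level per length (TPM, log axis) of 41 islet transcription factors, with 1 point per control library and a black bar at the mean. INSM1, MLXIPL and PDX1 are at the top, MAFA stands at 35.3 TPM on average, and HNF4G is lowest at 0.957 TPM.

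Genes of neuronal structure and synapse were present at a range of levels. Of 38 structural genes 36 were analysed, and all 36 were above 0.5 CPM in all 4 libraries with a median of 59.5 TPM. UCHL1, the neuronal ubiquitin hydrolase PGP9.5, had 330.4, 321, 402 and 325 CPM. NEFM, neurofilament medium chain, had 295, 386, 954 and 639 CPM, higher in C and D, and INA, another neurofilament protein, had 266 ± 34.3 CPM. SYP, synaptophysin of small vesicles, had 438 ± 48.3 CPM and STMN2, a microtubule regulator of growing neurites, 162 ± 24.3 CPM. SYN1, synapsin I, had 359, 327, 194 and 167 CPM, higher in A and B. GABA-related genes were present, with GAD2 as above and SLC32A1, the vesicular GABA transporter, at 148, 142, 153 and 109.9 CPM. TH, tyrosine hydroxylase, had 28.1 ± 6.97 CPM. TUBB3, a neuronal tubulin, had 11.4 ± 1.11 CPM, with 35.8% of its exon bases shared with a neighbouring gene. SLC17A7 and DBH were not analysed here.

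Of 59 neuronal transcription factors, 22 were analysed, 20 of these were above 0.5 CPM in all 4 libraries, and the median was 5.17 TPM. OLIG1, a factor of oligodendrocytes, was the highest per length, at 91.7 ± 13.7 TPM and 54.7, 53.8, 57.7 and 51.5 CPM. SCRT1, a repressor found in neurons and beta cells, had 54.1 ± 7.78 TPM. PAX5, known from B cells and midbrain, had 45.3, 36.5, 52.2 and 39.4 CPM. REST, which represses neuronal genes outside neurons and beta cells, had 1.88, 2.73, 3.32 and 3.71 CPM (1.44 ± 0.565 TPM). LHX3 and NHLH1 were those not above 0.5 CPM in all 4. POU4F1 and ZIC1 were among those not analysed here.

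Genes of glucose sensing differed widely in level, also between isoenzymes. Of 33 genes 29 were analysed and 27 were above 0.5 CPM in all 4 libraries, with a median of 51.8 TPM. HK1, the high-affinity hexokinase that beta cells keep low, had 47, 30, 19 and 23 reads (0.617 ± 0.280 CPM). SLC2A1, the transporter GLUT1, had 22, 19.6, 23.1 and 18.0 CPM. SLC2A2, the transporter GLUT2, had 26, 26, 26 and 31 reads (0.557 ± 0.0366 CPM), and SLC2A1 exceeded it 21.5-fold to 32.3-fold per length. G6PC2, the islet glucose-6-phosphatase, had 54.1, 50.6, 59.5 and 42.1 CPM. SLC2A3, HK2 and HK3 were among those not analysed here.

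Lactate dehydrogenase was represented by LDHA, at 37.0, 38.9, 43.2 and 33.2 CPM. LDHB had 23 to 32 reads, with LDHA 27.6-fold to 45.3-fold above it per length, although 33.4% of LDHB's exon bases are shared with another gene. SLC16A1, the lactate and pyruvate transporter MCT1, had 4.80 ± 0.702 CPM. ALDOA, a glycolytic aldolase, had 21.9, 15.4, 3.64 and 2.40 CPM, a 9.10-fold range, with A and B high. 42.3% of its exon bases are shared with an overlapping gene, so its counts are uncertain. GAPDH, at 1383 ± 193 CPM, and PKM, at 656 ± 88.0 CPM, showed no such range. SDHA, often used as a reference gene, had 8.51, 8.25, 3.68 and 5.77 CPM and was the lowest of 12 housekeeping genes per length. All 12 were analysed and above 0.5 CPM in all 4 libraries, with a median of 365 TPM.

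**Figure D3:**
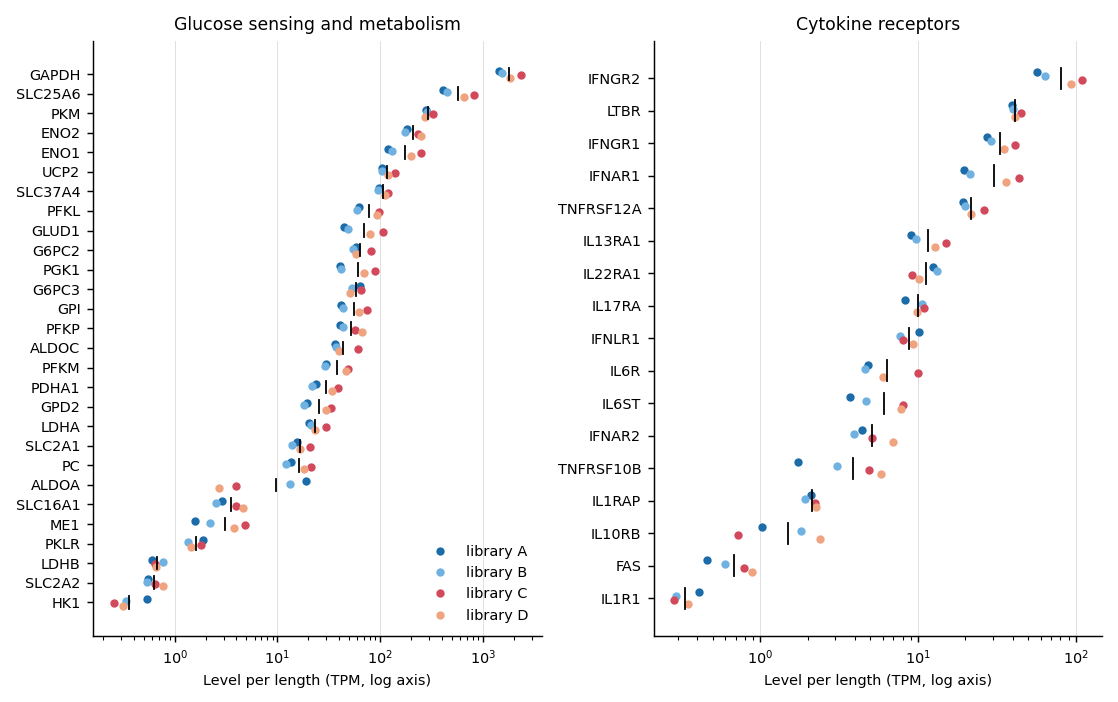
Level per length (TPM, log axis) of 28 glucose sensing and metabolism genes (left) and 17 cytokine receptor genes (right), with 1 point per control library and a black bar at the mean. SLC2A1 stands above SLC2A2 and LDHA above LDHB in every library, and IL1R1 is the lowest receptor drawn; TNFRSF1B, at 0 reads in all 4, is not drawn.

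Ion channel genes spanned a wide range of levels. Of 68 listed 57 were analysed, 56 were above 0.5 CPM in all 4 libraries, and the median was 10.6 TPM. KCNK16, the K2P potassium channel TALK-1 of beta cells, was the highest per length, at 749 ± 172 TPM and 317, 346, 395 and 380.1 CPM. ABCC8, the sulfonylurea receptor SUR1, had 838, 861, 614 and 730.1 CPM. KCNJ11, the pore subunit Kir6.2 of the same KATP channel, had 56.4, 46.8, 63.7 and 53.1 CPM, and ABCC8 exceeded it 2.45-fold to 4.68-fold per length, or 4.11-fold to 7.85-fold with the longest transcript. KCNH6 and KCNH2, ERG-type potassium channels, had 261 ± 21.6 and 147 ± 17.9 TPM. The calcium channel pore genes CACNA1C (18.1 ± 2.33 TPM), CACNA1D (17.8 ± 2.19 TPM) and CACNA1A (17.1 ± 3.63 TPM) overlapped in their ranges over libraries. CACNA1A reached 68.9 TPM with the longest transcript as length.

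Receptors of hormones and nutrients numbered 61 analysed of 85, of which 56 were above 0.5 CPM in all 4 libraries, with a median of 14.8 TPM. FFAR1, the long-chain fatty acid receptor GPR40, led at 463 ± 93.0 TPM and 271, 267, 320.0 and 255 CPM. FFAR4, another long-chain fatty acid receptor, had 3.10 ± 0.722 CPM, and FFAR1 exceeded it 126-fold to 222-fold per length. SSTR1, a somatostatin receptor, followed at 268 ± 57.4 TPM. SSTR5 was low at 2.25 ± 0.453 CPM, with SSTR1 38.4-fold to 54.6-fold above it. Both incretin receptors were expressed, GIPR with 259, 237, 161 and 239 CPM and GLP1R with 68.9, 70.9, 101 and 71.8 CPM, and per length GIPR was 1.04-fold to 2.47-fold of GLP1R. GPR119, a lipid receptor that raises cAMP, had 169.6 ± 55.7 TPM and GCGR, the glucagon receptor, 94.0 ± 10.5 TPM. CASR, the calcium-sensing receptor, had 403 ± 37.9 CPM and ADRA2A, through which adrenaline limits insulin release, 106 ± 16.1 CPM. EGFR, the epidermal growth factor receptor, stood near the other end with 11, 7, 28 and 35 reads. ADRB1, FGFR2, KIT and PDGFRA were among those not analysed here.

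Cytokine receptors bear on the use of the line as a model of immune attack. Of 26 listed, 18 were analysed, 16 were above 0.5 CPM in all 4 libraries, and the median was 7.58 TPM. IFNGR1 and IFNGR2, the chains of the IFNγ receptor, had 26.5, 28.3, 31.7 and 26.2 CPM and 50.1, 56.0, 76.5 and 63.4 CPM, with IFNGR2 2.09-fold to 2.67-fold above IFNGR1 per length. The TPM values listed in the paper have the reverse order, with IFNGR1 above IFNGR2 in all 4 controls. They are also far below the means here, which were 33.1 TPM for IFNGR1 and 81.0 TPM for IFNGR2. Why these calculations differ was not tested. IL1R1, the signalling receptor of IL-1β, had 40, 29, 24 and 29 reads (0.628 ± 0.161 CPM), and IFNGR1 exceeded it 67.1-fold to 143-fold per length. IL1RAP, its co-receptor, had 6.47 ± 0.600 CPM. TNFRSF1B, the second TNF receptor, had 0 reads in all 4 libraries, and up to 3 in each could have been missed. The paper lists a low TPM above 0 for TNFRSF1B in some of its controls, and the reason for this difference was not tested. LTBR had 68.6 ± 7.08 CPM, IFNAR1 48.5 ± 12.7 CPM, IFNAR2 6.11 ± 0.891 CPM and FAS, the death receptor, 0.749 ± 0.121 CPM. IFNAR2 and IL10RB share 44.2% and 38.1% of their exon bases with a neighbouring gene. IL1R2, TNFRSF1A, TNFRSF10A, IL2RG, IL4R, TLR3, TLR4 and CXCR4 were not analysed here.

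Disallowed genes, which adult beta cells are known to keep low, were not uniformly low. Of 28 listed 23 were analysed, 21 were above 0.5 CPM in all 4 libraries, and the median of 12.7 TPM lay beside 11.6 TPM over all genes. CD99, a surface protein, was the highest at 144 ± 44.3 TPM and CXCL12, a chemokine, followed at 82.4 ± 32.3 TPM and 102, 98.4, 171 and 138 CPM. HK1, ITIH5, IGFBP4, DAPK2 and REST were the lowest per length. Of 23 fetal and progenitor genes 15 were analysed and 14 were above 0.5 CPM in all 4, with a median of 17.3 TPM. CD24, a surface protein of progenitors, had 496, 499, 649 and 517 CPM, and PEG10, an imprinted retrotransposon-derived gene, had 586, 600.5, 900.3 and 631 CPM. LIN28B had 4.21 ± 0.310 CPM and HES1, a Notch target, 1.19 ± 0.639 CPM. ALDH1A3, NEUROG3, LIN28A and AFP were not analysed here.

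Cell cycle genes were expressed at moderate levels, with large differences between libraries. Of 38 listed 37 were analysed, 35 were above 0.5 CPM in all 4, and the median was 28.2 TPM. MKI67, a proliferation antigen, had 39.7, 55.7, 27.1 and 77.9 CPM, and TOP2A, a mitotic topoisomerase, had 36.5, 41.7, 31.1 and 85.3 CPM. CDK1, the mitotic kinase, had 9.13, 10.5, 11.3 and 25.6 CPM. Library D was highest for these 3 genes. PCNA, the replication clamp, instead had 45.7, 45.8, 84.3 and 88.2 CPM, with C close to D. Among the D-type cyclins, CCND1 had 0, 2, 1 and 2 reads and CCND3 40.9, 38.1, 61.4 and 48.9 CPM, while CCND2 was not analysed here. CDK6, a partner of D-type cyclins, had 3, 13, 29 and 21 reads, and CDK4, the other partner, had 54.0 ± 9.70 CPM. Inhibitors were among the highest of the list, with CDKN1A (p21) at 109 ± 22.1 CPM and CDKN2A (p16 and ARF) at 128 ± 32.7 CPM. TERT, telomerase reverse transcriptase, had 18.2, 18.9, 32 and 23.0 CPM. Counts on TERT cannot tell the cell's own gene from any remaining copy of the transgene.

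Marker lists of other tissues were mostly not analysed here or low, with a few abundant exceptions. Acinar cells had 3 of 25 genes analysed, all 3 above 0.5 CPM in all 4 libraries, with a summed level of 13.4 to 17.1 CPM over libraries. They were CPA1 at 8.41 ± 0.693 CPM, CEL and AMY2B, and the defining trypsinogen and lipase genes PRSS1 and PNLIP were not analysed. Duct cells had 8 of 16, all 8 above 0.5 CPM in all 4, and a median of 3.85 TPM, in which KRT19, a keratin of ducts that some fetal beta cells share, stood out at 79.9, 84.3, 159 and 96.6 CPM. Endothelial cells had 3 of 14, with 2 above 0.5 CPM in all 4, and a summed 63.5 to 89.0 CPM. That sum was nearly all EGFL7, a secreted vascular protein, at 84.1, 86.4, 77.4 and 59.9 CPM, while PLVAP had 0, 2, 1 and 6 reads and PECAM1, VWF and CDH5 were not analysed. Fibroblast and stellate cells had 8 of 20, with 6 above 0.5 CPM in all 4 and a median of 1.60 TPM. VIM, vimentin, a filament of mesenchymal cells, had 32 to 51 reads, and COL1A1, type I collagen, had 21, 3, 8 and 20 reads. RGS5, listed on 2 rows, was not counted.

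Several liver and gut genes were among the exceptions. Hepatocytes had 12 of 25 genes analysed and 11 above 0.5 CPM in all 4 libraries, with a median of 10.1 TPM. TTR, which alpha and beta cells also make, had 1657, 1942, 2709.6 and 2027 CPM. SERPINA1, alpha-1 antitrypsin, had 817, 843, 348 and 276 CPM, higher in A and B. RBP4 (39.9 ± 2.93 CPM), VTN and APOC3 (15.9 ± 3.11 CPM) were lower, and ALB and FGB were not analysed. Intestinal cells had 6 of 18, all 6 above 0.5 CPM in all 4, and 1 of these is CHGA, itself an endocrine gene. VIL1, villin of microvilli, had 265, 269, 327 and 284 CPM, CDH17, an intestinal cadherin, 31.8 ± 1.60 CPM, and CDX2, the intestinal homeodomain factor, 4.60 ± 1.04 CPM. LGR5, MUC2 and FABP1 were not analysed.

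Immune cells had 5 of 24 genes analysed, all 5 above 0.5 CPM in all 4 libraries, and their summed 217 to 359.6 CPM came almost wholly from CD74, the HLA class II invariant chain, at 339, 334, 189.8 and 200.5 CPM. PTPRC, CD3E and CD68 were not analysed. Muscle had 7 of 33, with 5 above 0.5 CPM in all 4 and a median of 1.56 TPM, led by MYL7, an atrial myosin light chain, at 29.5, 24.6, 10.7 and 20.3 CPM. DES had 10, 68, 53 and 63 reads. Glia and Schwann cells had 7 of 15, all above 0.5 CPM in all 4, led by OLIG1. Pluripotent cells had 4 of 13, with 3 above 0.5 CPM in all 4, led by TERT, while POU5F1 had 14 to 22 reads. Epidermis had 1 of 14, KRT10, at 10.4, 12, 29.6 and 14.5 CPM. Neither the erythroid list (14 genes) nor the germ cell list (18 genes) had a gene analysed. In bulk RNA, few cells with a high level and many cells with a low one cannot be told apart, which holds for each of these genes and for GCG and SST.

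**Figure D4:**
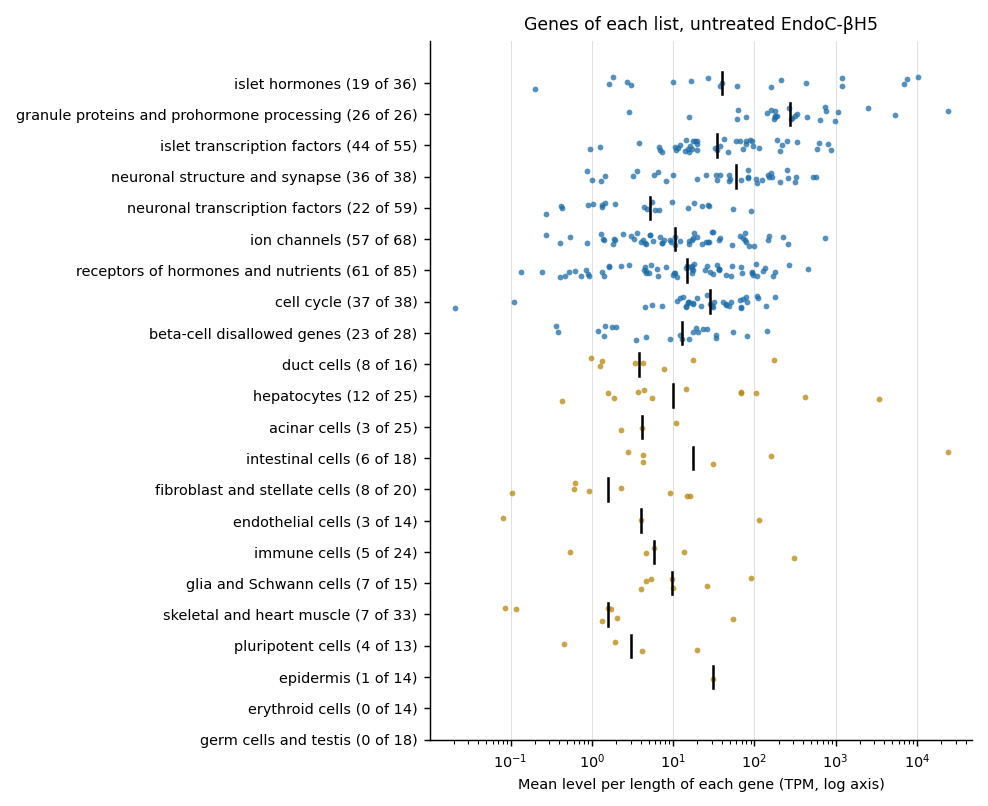
Mean level per length (TPM, log axis) of each analysed gene, 1 point per gene, in lists of endocrine, neuronal and functional genes (blue) and of other tissues (gold), with a black bar at the list's median and the number analysed of the number listed beside each name. Granule genes have the highest median, 278 TPM, and the erythroid and germ cell lists have no point.

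Mitochondrially encoded genes differed widely between libraries. Of the 15 protein-coding and ribosomal RNA genes of the mitochondrial genome, all 15 were analysed, with 147706, 145861, 58986 and 84609 CPM summed in A, B, C and D. MT-CO1 had 32759.8, 32546, 9709 and 15752 CPM, and MT-CO2, another cytochrome c oxidase subunit, had 15481, 15879, 7161 and 8490 CPM. MT-ND5, a complex I subunit, had 13560.0, 13133, 4596 and 7331 CPM. All 3 were high in A and B and lowest in C. MT-RNR2, the large ribosomal RNA, was far steadier at 14607, 16232, 12378 and 15135 CPM, 1.31-fold from lowest to highest. MT-ND6, the complex I gene on the other strand, went the opposite way at 7.59, 9.14, 53.4 and 83.1 CPM, so that it was 0.00193 to 0.0401 of MT-ND5 per length.

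Transfer RNA genes of the mitochondrion, named after their values were seen, were split by strand in the same direction. On the strand of MT-ND6, MT-TQ had 2.01, 1.67, 2.27 and 3.56 CPM and MT-TS1 had 0.706, 0.847, 1.75 and 3.36 CPM, highest in D. On the strand of MT-CO1, MT-TI had 288, 258, 10 and 9 reads and MT-TT had 2.82, 2.39, 0.577 and 1.19 CPM, and MT-TM and MT-TW were also higher in A and B than in C and D. The kit was strand-specific, and whether strand assignment had a part in this was not tested.

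**Figure D5:**
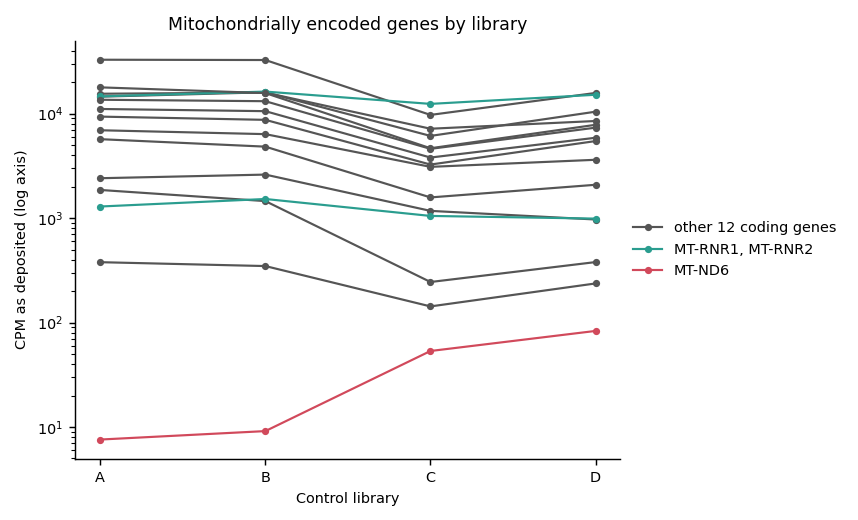
CPM as deposited (log axis) of the mitochondrially encoded genes in control libraries A to D, each line joining the values of 1 gene, with MT-RNR1 and MT-RNR2 in green and MT-ND6 in red. The other 12 coding genes are higher in A and B than in C and D, MT-RNR2 stays between 12378 and 16232 CPM, and MT-ND6 is above 50 CPM in C and D.

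At the floor of detection 37 genes had 3 reads or fewer in every control library, of which 26 were protein-coding and 4 were lncRNA genes. They are in the table because other columns passed the authors' filter. Those with 0 reads in all 4, named after their values were seen, were the 10 genes ART3, ETV7-AS1, GVINP1, IL12A, PTGES3P1, RTP4, SNORD14E, STK19B, TNFRSF1B and ENSG00000289582. IL12A encodes a subunit of interleukin 12, RTP4 is an interferon-induced chaperone and ART3 is an ecto-ADP-ribosyltransferase. Levels under the limit of 3 reads in a library could not be detected at this depth. With these included, 270 genes were under 0.5 CPM in each of the 4 libraries.

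The spread of the typical gene between libraries was moderate. Over those 14728 genes averaging 1 CPM or more, the median SD of log2(CPM + 0.1) was 0.26, the median coefficient of variation was 18.6%, and 7255 genes (49.3%) had a highest value less than 1.5 times the lowest. The SD was above 1 for 100 genes. The steadiest was ACTL6B, a neuronal chromatin remodelling subunit, at 74.9, 74.3, 74.8 and 75.1 CPM, followed by IGHMBP2, PRPF3, TANGO2, SYNJ2, GTF3C5, PAXX, LRRC37B, FBP1 and RNF144A. Among the 10 most variable, GBP1, an interferon-induced guanylate-binding protein, had 1.67 and 2.48 CPM in A and B and 1 and 2 reads in C and D. NELL1, a secreted protein, had 0.0428, 0.825, 2.13 and 1.23 CPM, and the pseudogene RPL7AP6 had 1.71, 1.35, 22 and 16.2 CPM. MT-ND6, MT-TI, MTND1P23, MTATP6P1 (1851, 1623, 216 and 275 CPM), GCG, ENSG00000269968 and ENSG00000265401 made up the rest. For most of the 10, A and B lay together and apart from C and D.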

How the data were processed

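Cells were cultured, RNA was extracted with a column kit and strand-specific mRNA libraries were sequenced by the authors. Per the labels and methods, reads were aligned to GRCh38 with TopHat2 2.1.1 and counted on genes with HTSeq 0.9.1, and the methods name Ensembl release 107. The authors deposited CPM values, which are counts divided by the library total, for genes above 0.5 CPM in at least 4 samples. The 4 control columns were used, and 8 other columns of per-sample values were not used here.

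In each control library 100% of values were whole multiples of 1 read (tolerance 0.01), which gave the reads. TPM was computed from these reads and GENCODE 29 exon lengths, found for 16167 of 16525 genes, all on the same chromosome. TPM divides by all annotated exons, so it understates genes with long rare transcripts. The longest transcript was an alternative. TPM values that the paper lists for its controls differ from these. They are all below the means here for PDX1 (587 TPM), NKX6-1 (209 TPM) and MAFA (35.3 TPM). For INS they are all above the mean here (10386 TPM). The reason was not tested. Symbols and biotypes are those of the table, and 1475 genes have no symbol.

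No group was compared and no p-value was computed. Dixon's limit for 4 values and a chi-square between libraries served as checks of the libraries. Gene lists and members were chosen with earlier results of these data known. Genes named are the list members with the most reads, those of known roles, and the 20 with most reads, the 10 highest per length, the 5 with most reads of each biotype with at least 20 genes, and the 10 with the largest and smallest SD of log2(CPM + 0.1). Some genes under this rule are not reported. The mean chi-square per gene between libraries was at least 14.2, beyond sampling noise, and each library was counted once. Scripts were tested on simulated data. Alternatives were the scaling (CPM over listed genes, and TMM in edgeR 4.0.16), the threshold, the pseudocount, the filter, the gene length and each library left out in turn. Python 3.11.15, pandas 2.3.3, numpy 2.4.6, scipy 1.17.1, matplotlib 3.10.9 and R 4.3.3 were used.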

Additional observations from a re-analysis of the deposited data

Results flagged for a closer look

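In 8 of the 84 named genes 1 library lay apart from the other 3, by a gap above the 95% limit of Dixon's test for 4 values, which chance alone passes in about 1 in 20 groups. Library C was apart and highest for 7 of them: CHGA at 24930.4 CPM, PEG10 at 900.3, PCSK2 at 658, CD24 at 649, UCHL1 at 402, GAD2 at 287 and GLP1R at 101 CPM. Library D was apart and highest for CDK1, at 25.6 CPM. These gaps are in CPM as deposited. After TMM scaling C stayed highest for all 7, but the gaps ranged from small to large. UCHL1 then had 358, 340, 361 and 316 CPM in A, B, C and D, and PEG10 had 634, 636, 809 and 612 CPM. The limit was not applied to the scaled values. Over the 14728 genes averaging 1 CPM or more, the same limit was passed by 671 (4.56%), with C apart in 331, D in 168, A in 117 and B in 55. Library C also had the lowest mitochondrial share, 7.39% of the reads on listed genes. How far that share has a part in these values was not tested.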

How the results depend on the processing

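Of 54 alternatives to the 10 main results, 52 moved a value by less than 1 SD or a count by less than 1.5 times. Many of these outcomes were fixed in advance, so the number is a weak check. Leaving out 1 of 4 libraries cannot move a mean by 1 SD. The counts above 0.5 CPM, 15117 of 16525 genes and 44 of 44 factors, could then only rise, with no room for 1.5 times. The number of genes at the floor fell from 37 at 3 reads or fewer to 10 at 0 reads. The rank of INS per length was 14 to 15 over the sets that leave out 1 library. The share of the 10 top genes was 15.5% to 18.2% over the same sets, INS 1923 to 2506 CPM, and the mitochondrial share of reads on listed genes 12.4% to 16.2%. INS was 2759 CPM when divided by reads on listed genes. With the longest transcript as length, 21 of the 84 named genes moved by more than 1 SD and 11 by more than 1.5 times, among them GNAS (4068 to 10726 TPM), LDHA (23.5 to 48.4 TPM) and TTR (3389 to 6222 TPM). Ratios of 2 genes per length were recomputed with that length, chosen after seeing the data, and no gene pair turned round in all 4 libraries. Some pairs turned in part, as PCSK1 over PCSK2 did. It was above 1 in 2 libraries with all annotated exons and in 1 with the longest transcript. The ratios of highest to lowest library stayed within 1.5 times under both other scalings, an outcome fixed in advance. Each scaling multiplies all genes of a library by 1 factor, and these factors differ too little to pass 1.5 times. The TMM factors lay between 0.924 and 1.11. Whether A and B or C and D came out higher differed between scalings for 28 named genes, CHGA and PDX1 included, but not for INS, IAPP, SST, GCG, MT-CO1 or MT-ND6. No paired analysis was possible because the columns carry no replicate number and no groups were compared.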

Other observations

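Reads on exons that 2 genes share on the same strand can be left uncounted, and the share of such bases was tabulated for the 16167 genes with a length. In the annotation used for lengths, which is not the release the authors name for counting, no shared base was found for 13680 genes. Their median level was 14.9 CPM. The median was 20.1 CPM for 1418 genes with up to 10% shared, 5.69 CPM for 874 genes with 10% to 50%, and 1.97 CPM for 195 genes with over 50%. Genes of different kinds fall in these groups, and the part of counting in these levels was not tested.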
